A study of Mus musculus with 9 samples.

Results

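The nuclear genes of oxidative phosphorylation are the protein-coding genes whose symbols start with Nduf, Uqcr, Atp5 or Cox4 to Cox8, together with Sdha, Sdhb, Sdhc, Sdhd, Cyc1 and Cycs. The rule uses gene names. It takes 96 of the 22396 genes listed: 46 named for complex I, 4 for complex II, 9 for complex III, 18 for complex IV, 18 for complex V, and the cytochrome c gene Cycs. Of these, 90 had enough counts to be tested.

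Mitochondria pass electrons from NADH and succinate through complexes I to IV to oxygen, pump protons across their inner membrane, and let ATP synthase, complex V, use the returning protons to make ATP. A few core subunits are encoded by mitochondrial DNA, while nuclear genes supply the other subunits, as mRNAs translated in the cytoplasm before the proteins are imported. The melanoma line studied, like many tumour lines, makes ATP by both glycolysis and respiration.

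RNA was recovered with RIG-I, a cytoplasmic RNA sensor, from B16F10 mouse melanoma cells that stably carry a FLAG-tagged RIG-I. All 9 libraries came from such cells, 3 from cells with the control hairpin shCtr, 3 with the hairpin shOSGEP#1 and 3 with shOSGEP#2, both against Osgep, the catalytic subunit of the KEOPS complex that places the t6A modification on tRNAs decoding ANN codons. A figure legend of the study describes the replicates as coming from independent experiments. The RNA was depleted of ribosomal RNA, and RNA from whole lysates was not analysed here, so a level below is the share of an mRNA among RNA recovered with RIG-I, and a change in recovery and a change in abundance cannot be told apart. The cells are bulk cultures, so fewer cells of a type and less RNA per cell cannot be told apart either.

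The libraries held 40333037, 47750758 and 41805753 counts with shCtr, 34551436, 50224299 and 30697653 with shOSGEP#1, and 25460689, 568995 and 14914731 with shOSGEP#2. The replicate 2 library of shOSGEP#2 is therefore shallow: 3 counts, taken as the floor, equal 5.27 CPM there (CPM being counts scaled to the same total in every library), against 0.0597 to 0.201 CPM in the other 8. Calls given below are those of edgeR unless DESeq2 is named. In the shallow library 61 of the 96 genes had no count, among them Uqcrb, Ndufs8 and Sdhb. It is shown apart, and the tests use the other 8 libraries, which leaves 2 libraries for shOSGEP#2.

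Osgep, the target of the hairpins, checks the labels. Osgep (ENSMUSG00000006289) had 771, 949 and 649 counts with shCtr, 130, 58 and 47 with shOSGEP#1, and 2 and 43 with shOSGEP#2, with 0 in the shallow library. Every library with a hairpin against Osgep lay below every shCtr library. The log2 fold change was -3.10 (SE 0.73, edgeR quasi-likelihood test, adjusted p = 0.0128) for shOSGEP#1 and -3.84 (SE 0.93, adjusted p = 0.0150) for shOSGEP#2, neither past the threshold of an adjusted p of 0.01 used here. The study's methods applied this threshold to DESeq2 results, and its use with edgeR is a choice made here. With shOSGEP#1 the threshold was passed with no filter (edgeR adjusted p = 0.000639) and with only the groups compared (0.000973), and not by DESeq2 (0.0150), within a range up to 0.0543 without shOSGEP#1 replicate 2 and 0.811 with all 9 libraries. With shOSGEP#2 it was passed by DESeq2 (adjusted p = 0.00920) and with no filter (0.000838), and the fold change was -2.78 without shOSGEP#2 replicate 1. Without shOSGEP#2 replicate 3, which leaves the library with 2 counts, the comparison with shOSGEP#2 also passed (edgeR adjusted p = 0.00135), and no fold change is given for it. The direct difference between the hairpins was -0.74 (SE 0.87, edgeR adjusted p = 0.568).

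The cell type was checked by marker genes. The 7 melanocyte markers Tyr, Tyrp1, Dct, Pmel, Mlana, Mitf and Sox10 had counts in all 8 deep libraries, and Tyrp1 was the most abundant. Markers of immune cells summed to at most 4.86 CPM in any library, with Cd8a and Itgam at 0 throughout, endothelial markers to at most 2.18 CPM and muscle markers to at most 2.87 CPM. Fibroblast markers summed to between 3.64 and 7.26 CPM with shCtr and shOSGEP#1, and to 16.5 and 39.1 CPM in the deep shOSGEP#2 libraries. Col1a1 and Col1a2 held most of the latter, at 4.99 and 14.8 CPM and at 6.91 and 18.1 CPM, while Lum was at 0 throughout and Dcn at 0.0786 and 0 CPM. Pdgfra stood at 4.44 and 0.939 CPM and Col3a1 at 0.0786 and 5.30 CPM in the same libraries. The 4 tested fibroblast markers all had positive fold changes with shOSGEP#2, with a median of 2.19. By edgeR 0 were called against shCtr, and 2 were higher than with shOSGEP#1, where 6.23% of all tested genes were. The shallow library had 68.5 CPM, all from Col1a1.

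The levels of the group as a whole differed little between hairpins. Together the 96 genes took 1.07%, 1.00% and 1.10% of the counts with shCtr, 1.05%, 1.02% and 0.996% with shOSGEP#1, and 0.950% and 0.982% with shOSGEP#2. The shOSGEP#1 shares overlap those of shCtr, while both deep shOSGEP#2 shares lie below all of them. The shallow library had 0.597% (95% Wilson interval 0.577% to 0.617%), while the intervals of the other libraries reach at most 0.987% with shOSGEP#2 and at least 0.998% with shCtr. These intervals cover counting error alone and do not measure a difference between groups. The replicates of shCtr spread more widely, at 1.058% ± 0.0526 (SD, n = 3). With complex V at 0.407% ± 0.0115 (SD, n = 3) of the counts and complex I at 0.282% ± 0.0180 (SD, n = 3), these complexes held most of the group's counts with shCtr. Complex II held the least of the complexes, 0.0549% ± 0.00391 (SD, n = 3).

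**Figure D1:**
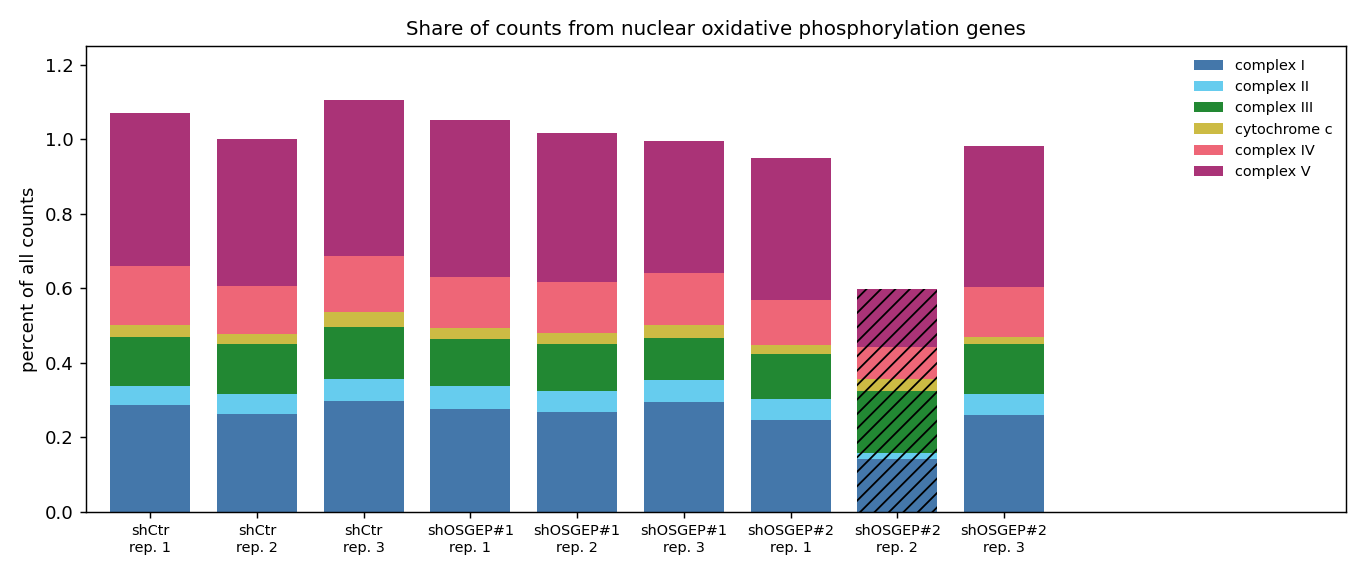
Stacked bars give the percent of all counts in each of the 9 libraries that fell on the nuclear genes of each complex and of cytochrome c, with the shallow shOSGEP#2 replicate 2 hatched. The 8 deep libraries lie between 0.950% and 1.10%, and the shallow library is at 0.597%.

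Between genes, levels were compared as CPM per kilobase of transcript, averaged over the 8 deep libraries. Atp5b, the catalytic beta subunit of ATP synthase, was the most abundant by this measure with 532 CPM per kilobase. Ndufa4 led complex I with 289, although the protein it encodes is now placed in complex IV. Uqcr11, a small subunit of complex III, stood at 279, Cox8a of complex IV at 247, Sdhd, a membrane anchor of complex II, at 110, and Cycs at 93.3. The 3 lowest tested genes were isoforms known from muscle or low oxygen, Cox7a1 at 0.420, Ndufa4l2 at 1.20 and Cox6a2 at 2.37, followed by the complex I assembly factor Ndufaf6 at 3.65.

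The 6 genes that could not be tested are tissue isoforms of complex IV or a second entry. Cox6b2, Cox7b2 and Cox8c had no count in any library. Cox4i2 had 4 counts, all in shCtr replicate 2, and Cox8b had 4 in shCtr replicate 3, 3 in shOSGEP#1 replicate 1 and 17 in shOSGEP#2 replicate 3. Atp5o is listed under 2 identifiers, and the second, ENSMUSG00000116933, had no count.

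The comparison of shOSGEP#1 with shCtr asks which RNAs recovered with RIG-I differ when Osgep is reduced by the first hairpin. Among the tested oxidative phosphorylation genes 1 of 90 was higher, Sdha, and 2 were lower, Uqcrb and Sdhc, so that 3 of 90 were called where 9.67% of all 12744 tested genes were (5.00% higher and 4.67% lower). With 1 library left out, 1 to 2 of the group and 318 to 1091 of all tested genes were called. The median log2 fold change of the 90 genes was -0.06, beside 0.00 for all tested genes, and 54 were negative. A log2 fold change beyond 1 in size was fitted for 2 of the 90 genes and 2042 of the 12744. They were Uqcrb and Cox7a1, the latter with too few counts for a fold change. With shOSGEP#2 it was fitted for 6 and 2731, and between the hairpins for 7 and 2837, with Ndufa4l2, also of too few counts, in both. By overlap of libraries, 9 genes lay above all shCtr libraries and 19 below, beside 23.1% and 22.2% of all tested genes. With the shallow library in the fit edgeR called none of the group, and 0 had an unadjusted p under 0.05, where 5.03% of all tested genes did. The fold changes were then 0.95 for Sdha, -0.97 for Sdhc and -2.03 for Uqcrb.

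Uqcrb (ENSMUSG00000021520), the ubiquinone-binding subunit of complex III, showed the largest fitted decrease of the group with shOSGEP#1. It stood at 65.6, 59.1 and 88.7 CPM with shCtr and at 16.5, 12.5 and 24.3 CPM with shOSGEP#1, and at 41.6 and 80.9 CPM in the deep shOSGEP#2 libraries, with no count in the shallow one. The shOSGEP#1 libraries lay below every other deep library, while shOSGEP#2 overlapped shCtr. The log2 fold change was -2.02 (SE 0.29, edgeR adjusted p = 0.00124) with shOSGEP#1, lower in 3 of 3 libraries, and -0.32 (SE 0.32, edgeR adjusted p = 0.498) with shOSGEP#2. Tested directly, shOSGEP#2 was above shOSGEP#1 by 1.70 (SE 0.32, edgeR adjusted p = 0.00331), a difference that lost its call without shOSGEP#1 replicate 1 (1.65), shOSGEP#1 replicate 2 (1.496) or shOSGEP#2 replicate 3 (1.18). The call with shOSGEP#1 was kept without any 1 of its 6 libraries, at -1.82 to -2.31. Uqcrb was the only 1 of the 9 complex III genes called by edgeR with shOSGEP#1, where DESeq2 added Uqcrc2, and the complex had a median log2 fold change of -0.23.

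Complex II, succinate dehydrogenase, is encoded by 4 nuclear genes and has no mitochondrially encoded subunit. Of these, 2 were called with shOSGEP#1, in opposite directions. Sdha (ENSMUSG00000021577), the flavoprotein that oxidises succinate, stood at 122.9, 123.7 and 117.1 CPM with shCtr, 224.8, 211.4 and 279.4 CPM with shOSGEP#1, and 169.2 and 144.4 CPM with shOSGEP#2, with 72.1 CPM in the shallow library. Both hairpins lay above shCtr in the deep libraries, with shOSGEP#1 the higher. The log2 fold change was 0.96 (SE 0.15, edgeR adjusted p = 0.00178) with shOSGEP#1 and 0.28 (SE 0.17, edgeR adjusted p = 0.257) with shOSGEP#2. The direct difference of -0.68 (SE 0.17, edgeR adjusted p = 0.0157) missed the threshold, while DESeq2 called it. The Sdha call was lost without shCtr replicate 1 (0.97, edgeR adjusted p = 0.0109) or replicate 2 (0.98, edgeR adjusted p = 0.0130), while the other libraries left out gave an adjusted p from 0.00357 to 0.00772.

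Sdhc (ENSMUSG00000058076), a membrane anchor subunit of the same complex, went the other way. It was at 133.6, 161.2 and 165.4 CPM with shCtr, 83.2, 88.0 and 68.0 CPM with shOSGEP#1, and 136.3 and 215.0 CPM with shOSGEP#2, with 75.6 CPM in the shallow library. The shOSGEP#1 libraries lay below every other deep library. The log2 fold change was -0.96 (SE 0.18, edgeR adjusted p = 0.00448) with shOSGEP#1 and 0.09 (SE 0.20, edgeR adjusted p = 0.771) with shOSGEP#2, and shOSGEP#2 was above shOSGEP#1 by 1.05 (SE 0.20, edgeR adjusted p = 0.00378). The shOSGEP#1 call was lost when any of its 6 libraries was left out, with an adjusted p from 0.01004 to 0.0248 and a log2 fold change from -1.06 to -0.86. The iron-sulphur subunit gene Sdhb and the anchor Sdhd were not called, with log2 fold changes of -0.46 and 0.32.

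The remaining genes near the top and bottom of the shOSGEP#1 comparison were not called by edgeR. Atp5e (ENSMUSG00000016252), the epsilon subunit of the ATP synthase head, stood at 104.4, 127.1 and 113.7 CPM with shCtr and 68.1, 90.6 and 38.0 CPM with shOSGEP#1. It was lower in 3 of 3 libraries, and its log2 fold change was -0.82 (SE 0.26, edgeR adjusted p = 0.0407). That value was -0.55 without shOSGEP#1 replicate 3 and -1.13 without shOSGEP#1 replicate 2. Ndufb3 (ENSMUSG00000026032), an accessory subunit of complex I, stood at 19.0, 13.9 and 19.0 CPM with shCtr, 21.8, 21.7 and 47.2 CPM with shOSGEP#1, and 13.8 and 15.4 CPM with shOSGEP#2. Replicate 3 of shOSGEP#1 was far above the others, and the log2 fold change was 0.79 (SE 0.30, edgeR adjusted p = 0.0797), and 0.32 (adjusted p = 0.323) without that library. Cox7a1 (ENSMUSG00000074218), a muscle isoform, had 1, 2 and 0 counts with shCtr, 6, 7 and 18 with shOSGEP#1 and 9 and 0 with shOSGEP#2, too few for a fold change. None of the 46 complex I, 13 complex IV and 17 complex V genes tested was called with shOSGEP#1 by edgeR. Of them 7, 1 and 3 had an unadjusted p under 0.05, where 18.0% of all tested genes were higher and 16.9% lower at that level. DESeq2 called Ndufb2 and Atp5e among them. In the whole group it called 2 higher and 4 lower, beside 8.31% and 7.10% of the genes it fitted.

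**Figure D2:**
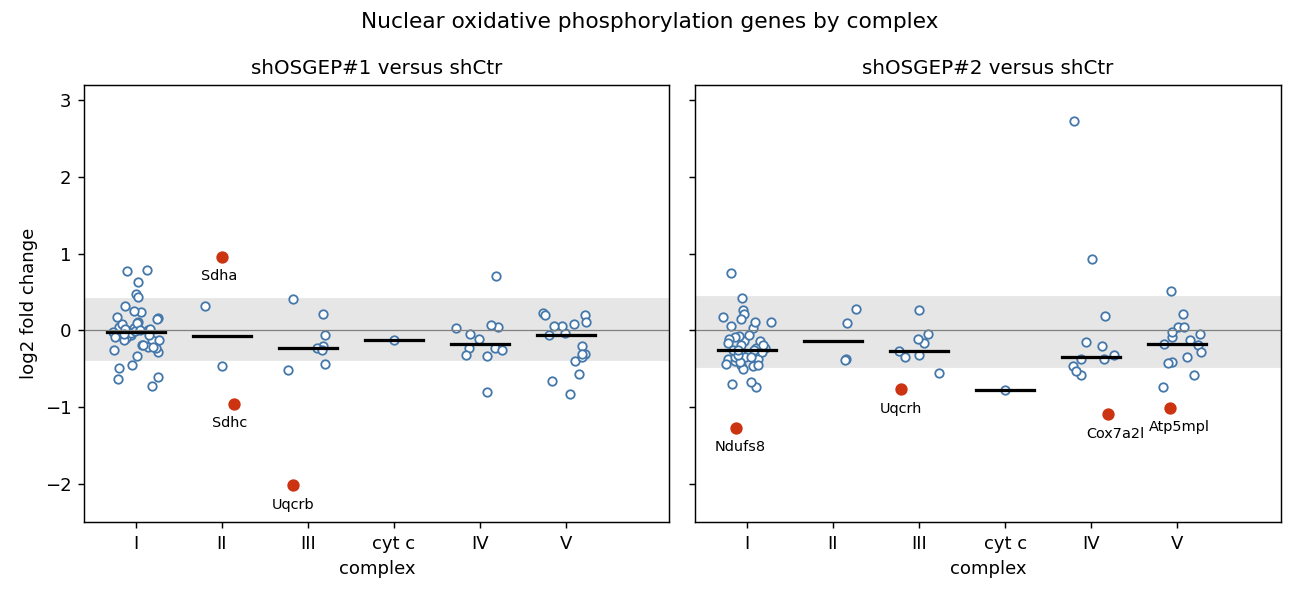
Each circle is the log2 fold change of 1 tested gene by complex, filled and named where the edgeR adjusted p was under 0.01, with a black line at the median of the points drawn and a grey band between the quartiles of all 12744 tested genes. Cox7a1 and Ndufa4l2 are left out for too few counts; with shOSGEP#1 the called genes were Sdha at 0.96, Sdhc at -0.96 and Uqcrb at -2.02, and with shOSGEP#2 the 4 called genes were all lower.

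With shOSGEP#2, compared with shCtr to ask the same of the second hairpin, edgeR called no gene of the group higher and 4 of 90 lower: Ndufs8, Uqcrh, Cox7a2l and Atp5mpl. At an unadjusted p under 0.05, 3 were higher and 18 lower, beside 17.7% and 17.9% of all tested genes. DESeq2 called these 4, Cox6a2 higher, and Cycs and Ndufb5 lower, beside 8.52% higher and 6.73% lower of the genes it fitted. Of all tested genes 9.55% were called (5.66% higher and 3.89% lower). The median log2 fold change was -0.26, beside -0.06 for all tested genes, and 69 of 90 genes were negative beside 53.4% of all tested. Relative to all tested genes the median was -0.20, and -0.30 to -0.12 with 1 library left out. Without TMM factors the median was -0.16 beside 0.03, with 62 negative and Uqcrh not called, and the calls over all tested genes then split into 901 higher and 375 lower in place of 721 and 496. Groups lay apart below shCtr for 25 genes and above it for 5, beside 23.6% and 28.7% of all tested genes. The comparisons of the hairpins with shCtr share the shCtr libraries. With the shallow library in the fit edgeR called 0 of the group, and 4 had an unadjusted p under 0.05, where 10.1% of all tested genes did. The fold changes were then -1.77 for Ndufs8, -0.28 for Uqcrh, -0.90 for Cox7a2l and -1.52 for Atp5mpl.

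Cox7a2l (ENSMUSG00000024248), a protein involved in joining complex III and IV into supercomplexes, had the smallest adjusted p of the group. It stood at 216.1, 206.2 and 215.3 CPM with shCtr, 173.4, 164.5 and 176.2 CPM with shOSGEP#1, and 105.7 and 107.3 CPM with shOSGEP#2. The 3 groups lay apart, in the order shCtr, shOSGEP#1, shOSGEP#2, except that the shallow library had 232.0 CPM. The log2 fold change was -1.09 (SE 0.14, edgeR adjusted p = 0.000517) with shOSGEP#2, -0.32 (SE 0.12, edgeR adjusted p = 0.0809) with shOSGEP#1, and -0.77 (SE 0.14, edgeR adjusted p = 0.00289) between the hairpins. The call with shOSGEP#2 held without any 1 of its 5 libraries, at -1.07 to -1.11.

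Ndufs8 (ENSMUSG00000059734), an iron-sulphur core subunit of complex I, stood at 42.1, 40.0 and 46.5 CPM with shCtr, 34.9, 26.5 and 49.9 CPM with shOSGEP#1, and 19.3 and 18.7 CPM with shOSGEP#2, with no count in the shallow library. The deep shOSGEP#2 libraries lay below every shCtr and shOSGEP#1 library, at a log2 fold change of -1.27 (SE 0.25, edgeR adjusted p = 0.00565) from shCtr. The direct difference between the hairpins was -1.05 (SE 0.25, edgeR adjusted p = 0.0131), called by DESeq2 and not by edgeR. All 7 core subunit genes of complex I had negative fold changes with shOSGEP#2, with a median of -0.33. Of these, 3 were lower at an unadjusted p under 0.05, and Ndufs8 alone was called. Among the 29 accessory subunit genes the median was -0.23, and among the 8 assembly factors -0.18, with no call in either by edgeR. There 4 and 1 had an unadjusted p under 0.05, all lower, and DESeq2 called Ndufb5. The shares over all tested genes were 53.4% negative, 17.9% lower at that level and 3.89% called lower by edgeR.

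Uqcrh (ENSMUSG00000063882), the hinge protein of complex III, stood at 73.2, 63.4 and 62.9 CPM with shCtr, 63.7, 69.4 and 60.0 CPM with shOSGEP#1, and 44.1 and 39.3 CPM with shOSGEP#2, with 142.4 CPM in the shallow library. Its log2 fold change with shOSGEP#2 was -0.76 (SE 0.17, edgeR adjusted p = 0.00842), a call lost with a replicate block (-0.76, adjusted p = 0.0119), with only the groups compared (-0.75, 0.0171), without TMM factors (-0.67, 0.0139) and with all 9 libraries (-0.28, 0.841). Atp5mpl (ENSMUSG00000021290), a small membrane subunit of ATP synthase, stood at 50.6, 47.0 and 51.4 CPM with shCtr, 36.2, 35.8 and 46.7 CPM with shOSGEP#1, and 22.2 and 30.7 CPM with shOSGEP#2, with no count in the shallow library. Among the deep libraries both genes were lowest with shOSGEP#2, and the log2 fold change of Atp5mpl was -1.01 (SE 0.20, edgeR adjusted p = 0.00520). Leaving out 1 library ended the Ndufs8 and Uqcrh calls in 5 of 5 cases and the Atp5mpl call in 4 of 5, all except shOSGEP#2 replicate 3. The log2 fold changes then ran from -1.32 to -1.20 for Ndufs8, from -0.89 to -0.66 for Uqcrh and from -1.23 to -0.82 for Atp5mpl, at an adjusted p from 0.00964 to 0.0588.

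**Figure D3:**
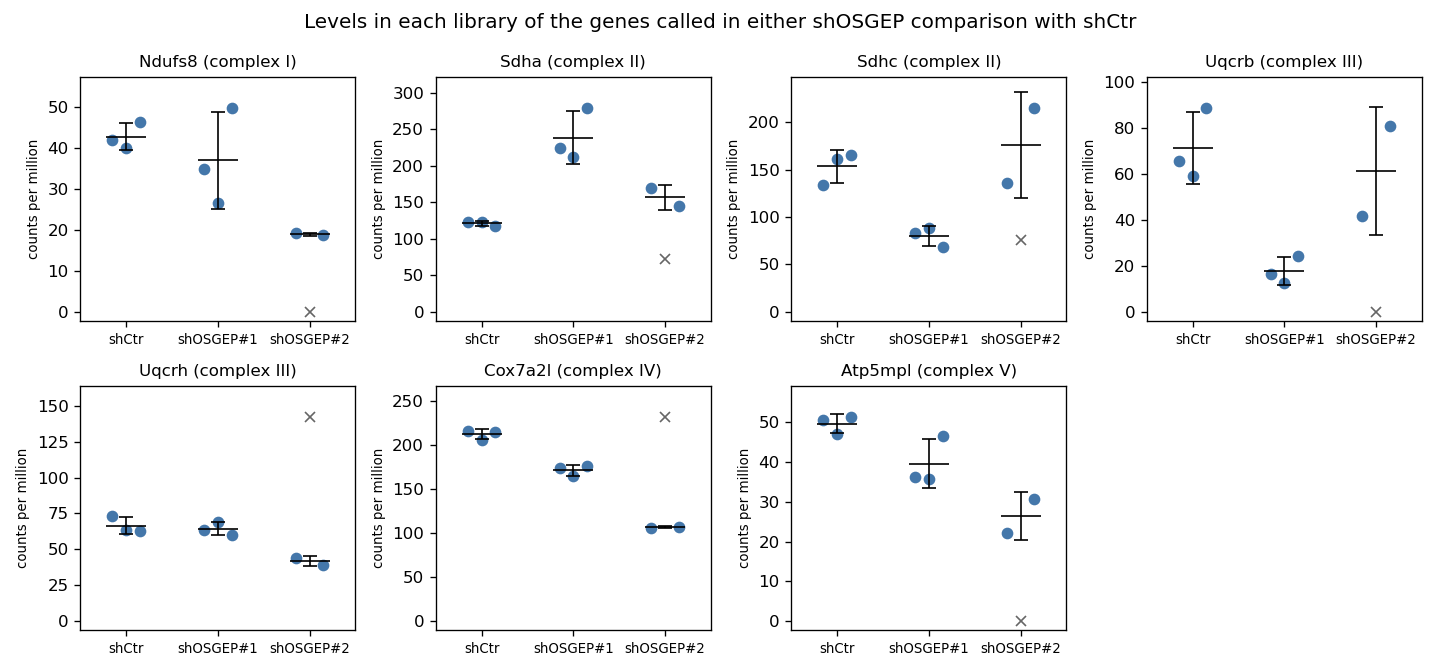
Each panel gives the CPM of 1 gene called with either hairpin, with a dot for each deep library, a cross for the shallow shOSGEP#2 replicate 2, and a bar with whiskers for the mean and SD of the 3 shCtr, 3 shOSGEP#1 and 2 deep shOSGEP#2 libraries. Among the dots, Uqcrb and Sdhc are lowest with shOSGEP#1, and Ndufs8, Uqcrh, Cox7a2l and Atp5mpl are lowest in the deep shOSGEP#2 libraries; the cross of Uqcrh at 142 CPM and of Cox7a2l at 232 CPM lies above every dot.

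At the upper end of the shOSGEP#2 comparison stood genes that edgeR did not call. Cox6a2 (ENSMUSG00000030785), the heart and muscle isoform of a complex IV subunit, stood at 0.843, 0.691 and 0.502 CPM with shCtr, 0.203, 0.597 and 0.358 CPM with shOSGEP#1, and 4.399 and 5.30 CPM with shOSGEP#2, the lowest of these being 7 counts. The deep shOSGEP#2 libraries lay above all others, at a log2 fold change of 2.73 (SE 0.68, edgeR adjusted p = 0.0165) from shCtr and 3.54 (SE 0.70, edgeR adjusted p = 0.00479) from shOSGEP#1. DESeq2 called the former as well (2.76). The shallow library had 0 counts, and its floor of 5.27 CPM is near these levels. Cox6a1 (ENSMUSG00000041697), the isoform of most tissues, had 64.0 and 183.4 CPM in the deep shOSGEP#2 libraries and 114.2 CPM in the shallow one, beside 54.7, 56.3 and 69.7 CPM with shCtr, and its log2 fold change of 0.93 (SE 0.39, edgeR adjusted p = 0.112) was 0.02 without shOSGEP#2 replicate 3. Ndufa4l2 (ENSMUSG00000040280), induced by low oxygen in many cells, had 57, 74 and 45 counts with shCtr, 25, 45 and 72 with shOSGEP#1, and 24 and 0 with shOSGEP#2, so no fold change is given. Cycs (ENSMUSG00000063694), the mobile electron carrier, stood at 326.1, 270.3 and 399.7 CPM with shCtr, and at 233.7 and 177.7 CPM in the deep shOSGEP#2 libraries, with 321.6 CPM in the shallow one. At -0.78 (SE 0.21, edgeR adjusted p = 0.0246) it was called by DESeq2 and not by edgeR.

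Melanocyte markers moved with shOSGEP#2 as well. Of the 7, edgeR called 5 lower (Tyr, Dct, Pmel, Mlana and Sox10) and DESeq2 all 7, beside 3.89% and 6.73% of all genes they tested. The list summed to 6336, 6039 and 8473 CPM with shCtr, 6288, 7565 and 6840 CPM with shOSGEP#1, and 2617 and 3374 CPM with shOSGEP#2. In the shallow library it summed to 1664 CPM. Sox10 stood there at 1090 CPM, above every deep library, while each of the other markers was below every shCtr library. With shOSGEP#1, 1 of the 7 was called lower, Tyr, and the hairpins differed for 4 of the 7, lower with shOSGEP#2. By edgeR 4.67% and 4.56% of all tested genes were lower in these comparisons. The part of this difference, and of the fibroblast marker levels given above, in the oxidative phosphorylation values was not tested.

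The hairpins were also compared with each other, in libraries that both comparisons above use. Of the 90 genes 3 were higher with shOSGEP#2 than with shOSGEP#1 (Sdhc, Uqcrb and Cox6a2) and 3 were lower (Ndufa8, Cox7a2l and Atp5c1), where 10.8% of all tested genes were called (6.23% higher and 4.56% lower). At an unadjusted p under 0.05, 8 were higher and 19 lower, beside 18.0% and 19.0% of all tested genes, and DESeq2 called 6 higher and 12 lower, beside 8.54% and 7.98% of the genes it fitted. The median was -0.18, beside -0.04 for all tested genes, and -0.09 beside 0.04 without TMM factors, where Atp5c1 was not called. Of the group 9 genes lay above all shOSGEP#1 libraries and 21 below, beside 27.1% and 22.5% of all tested genes. With the shallow library in the fit edgeR called 0 of the group, and 6 had an unadjusted p under 0.05, where 10.7% of all tested genes did. The differences were then 0.69 for Sdhc, 1.16 for Uqcrb, 3.18 for Cox6a2, -0.68 for Ndufa8, -0.56 for Cox7a2l and -1.005 for Atp5c1. All 6 calls were lost when only these 2 groups were fitted, and also without shOSGEP#1 replicate 1 or without shOSGEP#2 replicate 3. In this order, the fitted differences were then -0.77, -0.82 and -0.66 for Atp5c1, 3.55, 3.25 and 3.43 for Cox6a2, and -0.76, -0.75 and -0.75 for Cox7a2l. In the same order they were -1.07, -1.12 and -0.75 for Ndufa8, 1.06, 1.09 and 0.72 for Sdhc, and 1.71, 1.65 and 1.18 for Uqcrb. Without shOSGEP#1 replicate 2 the calls of Atp5c1 (-0.85), Cox6a2 (4.01), Ndufa8 (-1.13) and Uqcrb (1.496) were lost, without shOSGEP#1 replicate 3 those of Atp5c1 (-0.65), Cox6a2 (3.48), Ndufa8 (-0.98) and Sdhc (0.95), and without shOSGEP#2 replicate 1 those of Atp5c1 (-0.91) and Cox7a2l (-0.79). Ndufa8 (ENSMUSG00000026895), an accessory subunit of complex I, stood at 68.1, 56.0 and 72.3 CPM with shCtr, 96.2, 95.8 and 115.5 CPM with shOSGEP#1, and 63.0 and 38.9 CPM with shOSGEP#2, with 152.9 CPM in the shallow library. Among the deep libraries it was highest with shOSGEP#1, and the log2 difference between hairpins was -1.08 (SE 0.23, edgeR adjusted p = 0.00707). Atp5c1 (ENSMUSG00000025781), the gamma subunit that turns within the ATP synthase head, had 167.8, 159.5 and 207.0 CPM with shOSGEP#1 and 117.0 and 102.2 CPM with shOSGEP#2, with 153.6, 142.6 and 165.5 CPM with shCtr. The deep shOSGEP#2 libraries lay below every shCtr and shOSGEP#1 library, and the log2 difference between hairpins was -0.78 (SE 0.17, edgeR adjusted p = 0.00839). Ndufb3 had one of the 3 lowest differences, -1.14 (SE 0.35, edgeR adjusted p = 0.0358), called by DESeq2 and not by edgeR, and -0.66 without shOSGEP#1 replicate 3.

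Across the 3 comparisons 10 of the 90 tested genes were called at least once by edgeR and 80 were not, of which DESeq2 called 12. Of all tested genes 20.2% were called at least once by edgeR, and 29.5% of the 15710 fitted by DESeq2, beside 22 of 92 of the group. Of Cycs and the genes that led their complex per kilobase, Sdhd and Cycs were called by DESeq2 alone, while Atp5b, Ndufa4, Uqcr11 and Cox8a were called by neither tool. Atp5b stood at 1072, 1022 and 1029 CPM with shCtr, 1185, 1054 and 835 CPM with shOSGEP#1, and 1078 and 886 CPM with shOSGEP#2, with 541 CPM in the shallow library. Its groups overlapped. The same held for Ndufa4, at 182.4, 163.0 and 205.4 CPM with shCtr, 184.4, 198.0 and 150.8 CPM with shOSGEP#1, and 170.3 and 155.2 CPM with shOSGEP#2. Uqcr11 was spread more widely in the deep shOSGEP#2 libraries, at 69.8 and 202.0 CPM, on both sides of the 117.5, 118.4 and 153.7 CPM of shCtr. Cox8a stood at 169.2, 141.3 and 155.2 CPM with shCtr and at 137.0 and 90.7 CPM in the deep shOSGEP#2 libraries, a log2 fold change of -0.53 (SE 0.23, edgeR adjusted p = 0.128). The deep libraries lay below shCtr, and the shallow one, at 258.4 CPM, above it.

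Other genes of the pathway were taken from lists. Of 44 tested assembly factors outside the name rule, 4 were lower with shOSGEP#1 (Cox15, Cox18, Coa5 and Tmem242), where 4.67% of all tested genes were, and none was called with shOSGEP#2 by edgeR, where 3 higher and 6 lower had an unadjusted p under 0.05 and DESeq2 called 2 lower. Tmem242, an assembly factor of complex I and ATP synthase, stood at 74.5, 85.4 and 98.8 CPM with shCtr, 17.9, 11.3 and 13.0 CPM with shOSGEP#1, and 61.1 and 84.1 CPM with shOSGEP#2. Its libraries with shOSGEP#1 lay below every other deep library, at a log2 fold change of -2.63 (SE 0.21, edgeR adjusted p = 9.38e-05), a call kept without any 1 of its 6 libraries, at -2.84 to -2.49. The call of Coa5 was lost when any 1 of them was left out (-0.75 to -0.65), and those of Cox15 (-0.96 to -0.71) and Cox18 (-1.16 to -0.98) when any except shOSGEP#1 replicate 1 was. Of 13 coenzyme Q synthesis genes, 1 was higher with shOSGEP#1, Coq8a, by 1.12 (SE 0.20, edgeR adjusted p = 0.00332), a call lost without shCtr replicate 1 (1.03), shCtr replicate 2 (1.06) or shOSGEP#1 replicate 3 (0.96). With shOSGEP#2 edgeR and DESeq2 called 0 of the 13, where 2 were lower at an unadjusted p under 0.05. Of 14 tricarboxylic acid cycle genes and 12 regulators, among them Ppargc1a, Nrf1, Gabpa and Tfam, none was called with either hairpin by edgeR. At an unadjusted p under 0.05, the cycle genes had 3 lower with shOSGEP#1 and 4 lower with shOSGEP#2, and the regulators 4 higher with shOSGEP#1, and 1 higher and 1 lower with shOSGEP#2. Of all tested genes 18.0% were higher and 16.9% lower at that level with shOSGEP#1, and 17.7% and 17.9% with shOSGEP#2. DESeq2 called 0 and 1 cycle genes, the latter lower, and 2 and 1 regulators, all higher. Of the genes it fitted, 8.31% were called higher and 7.10% lower with shOSGEP#1, and 8.52% and 6.73% with shOSGEP#2. By edgeR, 9.67% of all tested genes were called with shOSGEP#1 (5.00% higher) and 9.55% with shOSGEP#2.

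Beside these, the gene groups most like the nuclear oxidative phosphorylation genes were set next to them. The 13 mitochondrially encoded genes, partners of the nuclear subunits, took 0.223%, 0.147% and 0.303% of the counts with shCtr, 0.347%, 0.445% and 2.96% with shOSGEP#1, and 0.211% and 0.268% with shOSGEP#2. The value of shOSGEP#1 replicate 3 stands apart from its group. The median log2 fold change was 4.46 with shOSGEP#1, and 1.00 without that library. None of the 13 was called by edgeR with either hairpin, while 13 and 0 had an unadjusted p under 0.05 and DESeq2 called 2 and 0. Of all tested genes, edgeR called 9.67% and 9.55%, and 18.0% and 17.7% were higher at an unadjusted p under 0.05. DESeq2 called 15.4% and 15.2% of the genes it fitted. Without shOSGEP#1 replicate 1, edgeR called 9 higher, at a median of 5.01, beside 1091 of all 12735 genes tested called in either direction. That fit keeps shOSGEP#1 replicate 3, the library that stands apart. With shOSGEP#2 the median was 0.58, and 0.22 to 0.98 with 1 library left out. The shallow library had a share of 0.633%, above both deep ones, and with it in the fit the median relative to all tested genes was 3.15 in place of 0.64. The 83 tested cytoplasmic ribosomal protein genes, which like the group are short and abundant mRNAs, had medians of -0.37 and -0.58. Of these 77 and 81 were negative, 33 and 56 were lower at an unadjusted p under 0.05, and edgeR called 2 and 4 lower. Of all tested genes 49.9% and 53.4% were negative, 16.9% and 17.9% were lower at that level, and 4.67% and 3.89% were called lower. The 78 mitochondrial ribosomal protein genes had medians of 0.02 and -0.28, with 0 and 2 called lower. With shOSGEP#1, 10 had an unadjusted p under 0.05 and DESeq2 called 1 higher and 1 lower. With shOSGEP#2, 1 was higher and 22 lower at that level. No test of a difference between these lists was made.

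The coding sequences were read for ANN codons, those read by the tRNAs that carry t6A. The 90 tested genes had a median of 26.9% ANN codons (quartiles 23.1% and 30.4%), beside 27.0% (quartiles 23.6% and 29.8%) for 12590 tested coding genes, and 33.7% for the cytoplasmic ribosomal protein genes. Cycs was highest of the 90 at 39.0%. Across the 90 genes the ANN share and the log2 fold change had a Spearman correlation of 0.10 with shOSGEP#1 and 0.04 with shOSGEP#2, a description over genes that share the same libraries. Over the 12590 tested coding genes these correlations were 0.06 and -0.06. The genes differ from the rest in length, with a median of 144.5 codons beside 467. Transcript length and the log2 fold change had a correlation of 0.11 and 0.17 over all tested coding genes, and of 0.10 and -0.10 across the 90. The part of length in the group's values was not tested. The coding sequences of 2 short genes called lower with shOSGEP#2, from GENCODE M21, show how ANN codons, in capitals, are spread in them, whole for Uqcrh and as the first 300 bases for Cox7a2l. Cox7a2l holds 35 ANN codons among 111 and Uqcrh 17 among 89.
Cox7a2l: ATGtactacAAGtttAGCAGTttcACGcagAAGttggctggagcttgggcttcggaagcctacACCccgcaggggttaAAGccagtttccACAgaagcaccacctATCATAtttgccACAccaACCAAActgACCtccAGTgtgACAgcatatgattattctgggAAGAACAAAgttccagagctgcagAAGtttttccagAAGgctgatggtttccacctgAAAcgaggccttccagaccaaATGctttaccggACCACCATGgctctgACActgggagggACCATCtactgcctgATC
Uqcrh: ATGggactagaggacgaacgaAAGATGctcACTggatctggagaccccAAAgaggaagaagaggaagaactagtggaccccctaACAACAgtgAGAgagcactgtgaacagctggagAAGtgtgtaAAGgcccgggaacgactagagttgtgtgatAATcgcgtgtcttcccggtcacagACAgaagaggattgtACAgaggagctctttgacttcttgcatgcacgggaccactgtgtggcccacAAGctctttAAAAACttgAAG

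Promoters, 250 bases before to 50 after the start, were found in the RefSeq table of GRCm38.p6 for 77 genes of the group and searched on both strands. The motif of NRF1, a factor known for driving respiratory genes, was in 24.7% of them, beside 5.19% of all 27025 genes in the table. The ETS motif CCGGAAG was in 23.4% beside 9.93%, and the YY1 motif AANATGGC in 24.7% beside 6.96%. The motifs were present in more of these promoters than of all promoters, and a match is a description of letters, not of a bound site. Ndufb4, called by neither tool, holds 3 NRF1 matches, as does Sdha, the gene called higher with shOSGEP#1. Those of Sdha are in capitals in the 250 bases before its start at chr13:74350241-74350490 of GRCm38.p6, minus strand.
Sdha: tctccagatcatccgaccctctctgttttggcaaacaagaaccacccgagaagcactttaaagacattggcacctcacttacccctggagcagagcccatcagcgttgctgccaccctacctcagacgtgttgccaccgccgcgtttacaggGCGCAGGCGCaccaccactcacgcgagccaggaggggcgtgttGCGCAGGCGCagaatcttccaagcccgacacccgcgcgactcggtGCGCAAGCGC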

How the data were processed

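The 9 libraries hold RNA pulled down with tagged RIG-I, grouped and numbered by the sample labels. The authors trimmed reads with TrimGalore, aligned them with STAR and quantified genes with Salmon on GRCm39 and deposited whole-number counts per gene, not normalized. Names, transcript lengths and coding sequences came from GENCODE M21, matched by identifier, which gave 22237 of 22396 genes a symbol; M21 is of an older build, so no coordinates were taken from it. Ndufb1-ps is not protein coding there and was left out.

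From the counts, CPM were computed on library totals. Genes were tested with edgeR 4.0.16 in R 4.3.3 (TMM, filterByExpr, quasi-likelihood, 1 coefficient per group, Benjamini-Hochberg over 12744 genes, adjusted p under 0.01) on 8 libraries, without shOSGEP#2 replicate 2. SE was derived from each F statistic. The test was checked on simulated counts, with 200 genes changed by a log2 fold of 1.5 at a dispersion of 0.07. There edgeR recovered 144 of them with shOSGEP#1 and 79 with shOSGEP#2, with 1 and 0 false calls. A gene not called, above all with shOSGEP#2, is therefore not shown to be unchanged. When a left-out library leaves shOSGEP#2 with 1 library, that library is assumed to vary like the other groups. Alternatives were all 9 libraries, DESeq2 1.42.0, other scalings and filters, a threshold of 0.05, only the groups compared, a replicate block and each library left out. Named genes were those called in any comparison, the 3 highest and 3 lowest fold changes in each, the most abundant gene per kilobase in each complex, and Osgep. The members and the lists were chosen with earlier results of these data known. Tmem242 and Coq8a were named after their values were seen, as were Cox15, Cox18 and Coa5. Floors and intervals describe counting error alone, as no molecular identifiers are described for the reads.

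Genes with near-identical copies are uncertain, since Salmon may split their reads: 6 of the group (Atp5c1, Atp5k, Atp5l, Cycs, Ndufab1 and Uqcrh) have a pseudogene named after them.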

Additional observations from a re-analysis of the deposited data

Results flagged for a closer look

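For 6 genes the hairpins differed from each other in a direct test between shOSGEP#2 and shOSGEP#1 (edgeR adjusted p under 0.01, libraries shared with the comparisons with shCtr). The log2 difference, shOSGEP#2 minus shOSGEP#1, was 3.54 for Cox6a2, 1.70 for Uqcrb and 1.05 for Sdhc. It was -1.08 for Ndufa8, -0.78 for Atp5c1 and -0.77 for Cox7a2l. All 6 calls were lost with only the 2 groups in the fit, with all 9 libraries, without shOSGEP#1 replicate 1 and without shOSGEP#2 replicate 3. No test for single libraries far from their group was made, since groups of 3 are too small for it.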

How the results depend on the processing

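With all 9 libraries, the shallow one included, edgeR called 0 genes in each comparison, and 0 of the oxidative phosphorylation genes, beside 620, 1240 and 1325 genes at an unadjusted p under 0.05 (shOSGEP#1 versus shCtr, shOSGEP#2 versus shCtr and shOSGEP#2 versus shOSGEP#1, in this order throughout). The common dispersion was then 0.4198 in place of 0.0692. The median of the group relative to all tested genes became -0.30 with shOSGEP#2 versus shCtr and -0.23 between the hairpins, from -0.20 and -0.13. DESeq2 called 2420, 2395 and 2595 genes, 6, 7 and 18 of the group. At an adjusted p under 0.05, edgeR called 2797, 2674 and 2952 genes, 9, 10 and 20 of the group. With only the groups compared in the fit, 737 genes were called between the hairpins and 0 of the group. The causes were not tested.

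Leaving out each library in turn gave 318 to 1091, 518 to 1248 and 743 to 1504 genes, 1 to 2, 1 to 2 and 0 to 6 of the group, and relative medians from -0.14 to -0.0242, -0.30 to -0.12 and -0.18 to -0.10. A fit with a replicate block called 1380, 1238 and 1393 genes, 4, 3 and 8 of the group, without Uqcrh (shOSGEP#2 versus shCtr, -0.76) and Cox6a2 (between the hairpins, 3.81). It gained Ndufv3 with shOSGEP#1, and Atp5j2, Ndufs8 and Uqcrq between the hairpins. The labels do not say whether a replicate number marks the same experiment across groups. Libraries with the same number had a mean correlation of deviations from their group means of 0.0809, not over 0.1 in every pair. The mean with different numbers, -0.0398, adds no information, because such deviations cancel within each group and so tie the 2 means together. Of 282 values of 20 named results, 201 kept their side of the threshold, 68 lost the call, 13 gained one and 0 changed sign. Depth limits the shallow library to genes above 5.27 CPM, and shOSGEP#2 otherwise rests on 2 libraries.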
